A study of Mus musculus with 14 samples.

Results

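The Notch pathway and Deltex genes described here were 9 genes by name, the receptors Notch1, Notch2 and Notch3, the nuclear effector Rbpj, the targets Hes1 and Nrarp, and the Deltex genes Dtx1, Dtx3l and Dtx4. They were picked with earlier results of these libraries known. A row of the deposited expression table was taken where its gene name was 1 of the 9, which gave 8 genes of 22255. Nrarp was not analysed here. Because the choice drew on these same libraries, levels and differences of the 8 genes are given as descriptions without p-values.

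RNA sequencing was done on mouse regulatory T cells (Treg), the Foxp3-expressing CD4 T cells that restrain immune responses, isolated as Foxp3-YFP+ cells from mice aged 8 weeks. The KO tumor group (3 libraries) came from CD36floxed FoxP3-YFPCre+/- mice, which carry a floxed Cd36 fatty acid transporter gene and Cre recombinase expressed from Foxp3, so that the deletion is directed to Foxp3-expressing cells, and its Treg had infiltrated Yumm1.7 tumors, grown from a mouse melanoma line. The WT tumor group (3 libraries, numbered 2 to 4) came from Yumm1.7 tumors in FoxP3-YFPCre+/+ mice without the floxed gene, so both groups carry the Cre but are labelled with different Cre copy states, and that difference and the deletion cannot be told apart. Lymph node (LN, 4 libraries) and spleen (4 libraries) Treg came from the same FoxP3-YFPCre+/+ strain. The question behind the comparisons was how Treg expression programs differ among tissues, and between tumor Treg with and without CD36. Nothing in the labels says that libraries of a group came from separate mice, so all errors measure the spread between libraries, which may be technical.

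In Notch signalling, a ligand on a neighbouring cell exposes the receptor to ADAM proteases and then to gamma-secretase, and the freed intracellular domain enters the nucleus, where it joins the DNA-binding protein Rbpj and a Mastermind coactivator to switch on targets such as Hes1. Without that domain, Rbpj recruits corepressors. Deltex proteins are ubiquitin ligases first known as Notch regulators in the fly. In mouse T cells Dtx1 is a target of NFAT that takes part in anergy, and in mouse Treg Rbpj is known to restrain type 2 helper responses.

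The promoters of Rbpj and Dtx1 are shown because these members ran in opposite directions between tumor and lymphoid Treg. The windows run from 250 bases before to 50 bases after the annotated start, 5′ to 3′ on the gene's own strand, from RefSeq on GRCm38.p6. Capitals mark each match to the core letters bound by RBPJ, TGGGAA, read on both strands as TGGGAA or TTCCCA.
Rbpj, chr5:53590096-53590395, plus strand: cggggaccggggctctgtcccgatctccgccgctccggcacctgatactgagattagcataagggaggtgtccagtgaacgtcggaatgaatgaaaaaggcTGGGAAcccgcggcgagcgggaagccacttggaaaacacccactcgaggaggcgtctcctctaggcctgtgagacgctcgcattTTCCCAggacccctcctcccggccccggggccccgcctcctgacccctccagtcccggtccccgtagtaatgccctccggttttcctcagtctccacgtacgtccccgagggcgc
Dtx1, chr5:120711620-120711919, minus strand: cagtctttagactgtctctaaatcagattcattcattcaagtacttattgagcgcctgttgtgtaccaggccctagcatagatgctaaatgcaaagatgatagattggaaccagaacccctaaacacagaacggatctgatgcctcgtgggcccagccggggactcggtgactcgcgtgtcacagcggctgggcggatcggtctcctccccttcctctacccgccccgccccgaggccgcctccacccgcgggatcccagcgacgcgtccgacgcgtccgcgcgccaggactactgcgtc
The Rbpj window held 2 matches, whose first bases lay 149 and 65 bases before the start, and the Dtx1 window held 0. A second annotated Rbpj window, chr5:53590236-53590535, overlaps the first and held 1, the same TTCCCA that lay 65 bases before the first start. Windows were found for 7 of the 9 genes by symbol, and those of Notch1, Notch2, Notch3, Dtx3l and Nrarp held 0 matches. Of all 32851 promoter windows of 300 bases, 25.6% held at least 1 match. A match describes letters in a window and says nothing of binding.

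Values are FPKM, fragments per kilobase of transcript scaled to the library's mapped fragments, computed by the authors. Steps between low values gave estimated depths of 10.7 to 21.45 M reads per library, and 7469 to 8307 genes per library reached 1 FPKM. All 8 Treg markers examined reached 1 FPKM in every library, while Foxp3 itself ranged over 25.7 to 42.4 FPKM in KO tumor, 3.54 to 12.0 in WT tumor, 15.4 to 32.3 in LN and 8.67 to 27.8 in spleen. Cd36 was listed at 0, 1.06 and 0 FPKM in the KO tumor libraries, at 0 in every WT tumor and LN library, and at 0, 0.598, 4.47 and 2.17 FPKM in spleen, so the deletion could not be read from these levels. The summed level of 9 macrophage or monocyte markers was 275 to 392 FPKM in KO tumor, 1.03 to 105 in WT tumor, 3.99 to 33.6 in LN and 258 to 674 in spleen. The summed level of 9 B cell markers was 19.8 to 62.0 FPKM in KO tumor, 7.54 to 101 in WT tumor, 49.6 to 68.3 in LN and 96.4 to 342 in spleen. The summed level of 6 erythroid genes ran widely, over 63.3 to 16427 FPKM in KO tumor, 225 to 11899 in WT tumor, 79.0 to 1191 in LN and 2976 to 7079 in spleen. In bulk libraries such as these, fewer cells of a type and less RNA per cell cannot be told apart.

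Rbpj was the member that set both tumor groups apart from both lymphoid tissues. Dtx1 ran the other way, but its KO tumor and LN libraries overlapped. Hes1 was high in KO tumor and spleen and near 0 in WT tumor and LN. Notch1, Notch2 and Dtx3l overlapped between all groups, Dtx4 between all but KO tumor and LN, and Notch3 was close to the limit of detection. The plot of member levels by group shows these patterns.

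**Figure D1:**
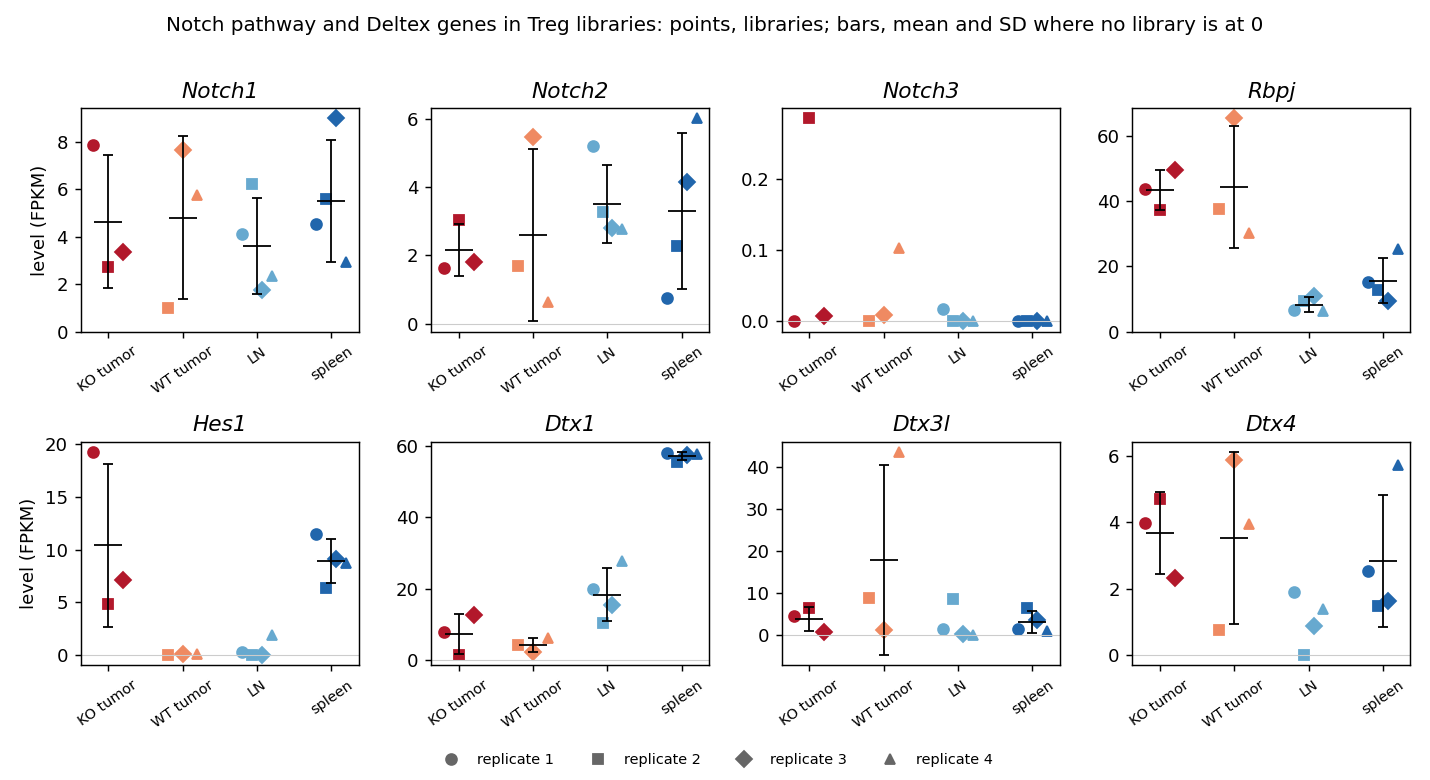
Level in FPKM (vertical axis) of the 8 members in each library, by group. Points are libraries, marker shapes give the replicate number, and bars give the mean and SD where no library of the group is at 0. Rbpj lies at 30.04 to 65.4 FPKM in the tumor groups and at 6.34 to 25.4 in LN and spleen, and Dtx1 lies at 55.5 to 58.0 in spleen and at 1.55 to 27.8 elsewhere.

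Among the receptors, Notch1, which T cells need for lineage commitment in the thymus, had 7.87, 2.71 and 3.35 FPKM in KO tumor, 0.992, 7.67 and 5.76 in WT tumor, 4.14, 6.22, 1.76 and 2.33 in LN, and 4.55, 5.59, 9.02 and 2.94 in spleen. All 4 groups overlapped, and neighbours in the order of means, spleen, WT tumor, KO tumor and LN, did not separate. Its log2 difference was 0.10 ± 0.82 (SE) for KO tumor minus WT tumor, 0.19 ± 0.67 for WT tumor minus LN, -0.33 ± 0.67 for WT tumor minus spleen and -0.52 ± 0.62 for LN minus spleen, on the log2(FPKM + 1) scale used throughout. With single libraries left out its sign turned for KO tumor minus WT tumor (-0.55 to 0.51), WT tumor minus LN (-0.23 to 0.83) and WT tumor minus spleen (-0.75 to 0.31).

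Notch2, a receptor best known in lymphocytes for marginal zone B cells, had 1.62, 3.03 and 1.82 FPKM in KO tumor, 1.68, 5.46 and 0.647 in WT tumor, 5.20, 3.26, 2.81 and 2.78 in LN, and 0.743, 2.26, 4.16 and 6.01 in spleen. These groups overlapped in every pair as well, and 1 library in each of WT tumor and spleen was under 1 FPKM. The log2 difference was 0.02 ± 0.75 for KO tumor minus WT tumor, -0.53 ± 0.68 for WT tumor minus LN, -0.31 ± 0.68 for WT tumor minus spleen and 0.22 ± 0.63 for LN minus spleen. Its sign turned with single libraries left out for KO tumor minus WT tumor (-0.42 to 0.56), WT tumor minus spleen (-0.85 to 0.13) and LN minus spleen (-0.15 to 0.52). Notch1 and Notch2 each share exonic bases with other annotated transcripts (1068 and 414 bases on the opposite strand for Notch1, 541 on the same strand for Notch2), and reads there may not be assigned to the right gene.

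Notch3 had 0, 0.284 and 0.00724 FPKM in KO tumor, 0, 0.00925 and 0.103 in WT tumor, 0.0175, 0, 0 and 0 in LN, and 0 in each spleen library. A count of 3 reads would have given 0.0174 to 0.035 FPKM, so KO tumor library 2 and WT tumor library 4 were above that floor and the others were at or under it. It never reached 1 FPKM and entered no fit.

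The nuclear effector Rbpj had 43.6, 37.2 and 49.5 FPKM in KO tumor, 37.5, 65.4 and 30.04 in WT tumor, 6.51, 9.28, 11.1 and 6.34 in LN, and 15.2, 12.6, 9.43 and 25.4 in spleen. Every tumor library lay above every LN and spleen library, the tumor groups overlapped, and so did LN and spleen. The means were 43.4 ± 6.16 FPKM (SD, n = 3) in KO tumor, 44.3 ± 18.6 (n = 3) in WT tumor, 8.30 ± 2.28 (n = 4) in LN and 15.7 ± 6.89 (n = 4) in spleen.

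The WT tumor mean of Rbpj was 5.34 times the LN mean and 2.83 times the spleen mean, and the KO tumor mean was 5.23 times the LN mean and 2.77 times the spleen mean. The log2 difference was 0.04 ± 0.44 for KO tumor minus WT tumor, 2.24 ± 0.49 for WT tumor minus LN, 1.45 ± 0.49 for WT tumor minus spleen and -0.79 ± 0.45 for LN minus spleen. With single libraries left out, it ran from -0.20 to 0.35 for KO tumor minus WT tumor, from 1.93 to 2.48 for WT tumor minus LN and from 1.14 to 1.70 for WT tumor minus spleen. The summed level of 6 CD8 T or NK cell markers also lay higher in tumor than in LN, at 16.8 to 37.1 FPKM in KO tumor, 22.3 to 66.2 in WT tumor and 0.110 to 9.62 in LN, with 7.82 to 66.8 in spleen. Cd8b1 had the highest mean of the list in each of these groups, at 16.2 FPKM in KO tumor, 40.2 in WT tumor, 2.88 in LN and 24.0 in spleen. Cd8a averaged 0.623, 0.737, 0.138 and 4.73 FPKM in the same order, and Prf1 3.69, 1.27, 1.66 and 2.82. The part of the CD8 T or NK cell, macrophage or B cell transcripts in the Rbpj differences was not tested. Processed pseudogenes of Rbpj in the annotation were not analysed here, and whether reads were split with them was not tested.

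Hes1, a basic helix-loop-helix repressor and a classical target of the cleaved receptor, had 19.3, 4.82 and 7.14 FPKM in KO tumor, 0, 0.101 and 0.0473 in WT tumor, 0.320, 0, 0.0317 and 1.89 in LN, and 11.5, 6.37, 9.13 and 8.72 in spleen. All KO tumor and spleen libraries were above all WT tumor and LN libraries, and KO tumor overlapped spleen. Each WT tumor value was under the level that 3 reads would give in its library (0.142 to 0.191 FPKM), and no ratio of means against that group is given. Hes1 met the minimum of 1 FPKM in 3 libraries only through the groups where it was high, KO tumor in the fit of the tumor libraries and spleen, with LN library 4, in that of the wild-type tissues.

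The log2 difference of Hes1 was 3.23 ± 0.73 for KO tumor minus WT tumor, -0.43 ± 0.56 for WT tumor minus LN, -3.22 ± 0.56 for WT tumor minus spleen and -2.79 ± 0.52 for LN minus spleen. The pseudocount sets the size of these values, which are not bounds: with 0.1 in place of 1 they were 5.94 for KO tumor minus WT tumor, -1.17 for WT tumor minus LN, -5.94 for WT tumor minus spleen and -4.77 for LN minus spleen.

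Hes1 moved with the summed macrophage and monocyte list, but not with each marker. The 7 libraries with 4.82 FPKM or more of Hes1 had 258 to 674 FPKM of these markers, 6 to 9 of the 9 at 1 FPKM or more, and the 7 with 1.89 FPKM or less had 1.03 to 105 FPKM, 0 to 3 of the 9. Tyrobp, Fcer1g and C1qb had the highest KO tumor means of the list, at 129, 96.9 and 67.9 FPKM. Fcer1g overlapped between the tumor groups, at 59.4 to 150 FPKM in KO tumor and 0.185 to 78.0 in WT tumor (median 2.39). Lyz2 did not follow Hes1, with means of 2.19 FPKM in KO tumor, 6.68 in WT tumor (median 0.164), 6.49 in LN and 12.7 in spleen. Cd68 ranged from 0 to 9.10 FPKM in KO tumor, with a median of 0.0463. Cd68 and Adgre1 were at 0 in every WT tumor library, and Adgre1 was at 0 in 2 KO tumor libraries, 3 LN libraries and 1 spleen library. Within KO tumor, library 1 had the highest Hes1, the lowest marker sum (275 FPKM), the highest mean log2(FPKM + 1) of the markers (3.60, against 3.30 in library 2 and 3.10 in library 3) and the most markers at 1 FPKM or more (8, against 6 in each of the others). The part of these transcripts in the Hes1 differences was not tested.

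**Figure D2:**
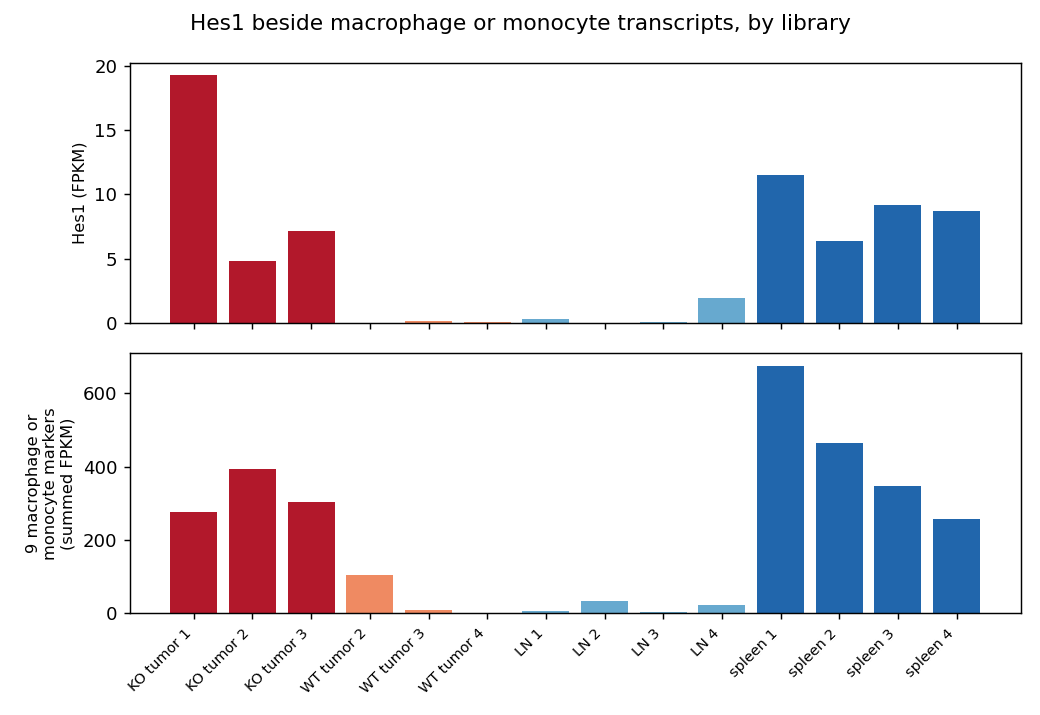
Hes1 level in FPKM (upper panel) and summed FPKM of 9 macrophage or monocyte markers (lower panel) in each library, with bars from 0. KO tumor and spleen libraries have 4.82 to 19.3 FPKM of Hes1 and marker sums of 258 to 674, against Hes1 of 0 to 1.89 and sums of 1.03 to 105 in WT tumor and LN.

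Dtx1, the Deltex ligase that in mouse T cells has been tied to anergy and to Treg stability, had 8.08, 1.55 and 12.8 FPKM in KO tumor, 4.25, 2.25 and 6.22 in WT tumor, 20.01, 10.4, 15.4 and 27.8 in LN, and 58.0, 55.5, 57.5 and 57.7 in spleen. Spleen lay above every other library, LN lay above WT tumor, and KO tumor overlapped both WT tumor and LN. The means were 7.47 ± 5.64 FPKM (SD, n = 3) in KO tumor, 4.24 ± 1.99 (n = 3) in WT tumor, 18.4 ± 7.37 (n = 4) in LN and 57.2 ± 1.13 (n = 4) in spleen.

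The spleen mean of Dtx1 was 13.5 times the WT tumor mean, 7.65 times the KO tumor mean and 3.11 times the LN mean, and the LN mean was 4.34 times the WT tumor mean. The log2 difference was 0.46 ± 0.83 for KO tumor minus WT tumor, -1.88 ± 0.46 for WT tumor minus LN, -3.55 ± 0.46 for WT tumor minus spleen and -1.66 ± 0.43 for LN minus spleen. With single libraries left out it ran from -0.05 to 1.17 for KO tumor minus WT tumor, from -2.15 to -1.58 for WT tumor minus LN, from -3.82 to -3.24 for WT tumor minus spleen and from -1.88 to -1.44 for LN minus spleen.

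The B cell marker sum was 19.8 to 62.0 FPKM in KO tumor, 7.54 to 101 in WT tumor and 49.6 to 68.3 in LN, and in spleen it ran from 96.4 to 342 over libraries with 55.5 to 58.0 FPKM of Dtx1. Its part in the Dtx1 differences was not tested.

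Dtx3l, a Deltex ligase that forms a complex with Parp9 in interferon and DNA damage responses, had 4.54, 6.35 and 0.594 FPKM in KO tumor, 8.80, 1.18 and 43.6 in WT tumor, 1.45, 8.47, 0.158 and 0 in LN, and 1.32, 6.51, 3.58 and 0.987 in spleen. WT tumor library 4 held the highest value of the 14, and all groups overlapped. The log2 difference was -1.29 ± 1.13 for KO tumor minus WT tumor, 2.11 ± 1.02 for WT tumor minus LN, 1.47 ± 1.02 for WT tumor minus spleen and -0.64 ± 0.95 for LN minus spleen, and it moved with single libraries. Without WT tumor library 4 it was -0.20 for KO tumor minus WT tumor, 1.02 for WT tumor minus LN and 0.38 for WT tumor minus spleen, and without WT tumor library 3 it was -2.38, 3.20 and 2.56 for the same comparisons.

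Dtx3l and Parp9 share 458 exonic bases on opposite strands, and without strand in the library protocol reads there cannot be told apart. Parp9 had 11.4, 25.8 and 24.8 FPKM in KO tumor, 36.4, 27.2 and 12.2 in WT tumor, 26.2, 25.5, 5.07 and 17.9 in LN, and 28.1, 24.7, 12.4 and 56.4 in spleen. Its highest library was spleen library 4, where Dtx3l had 0.987 FPKM, and in WT tumor library 4, the highest for Dtx3l, it had 12.2 FPKM.

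**Figure D3:**
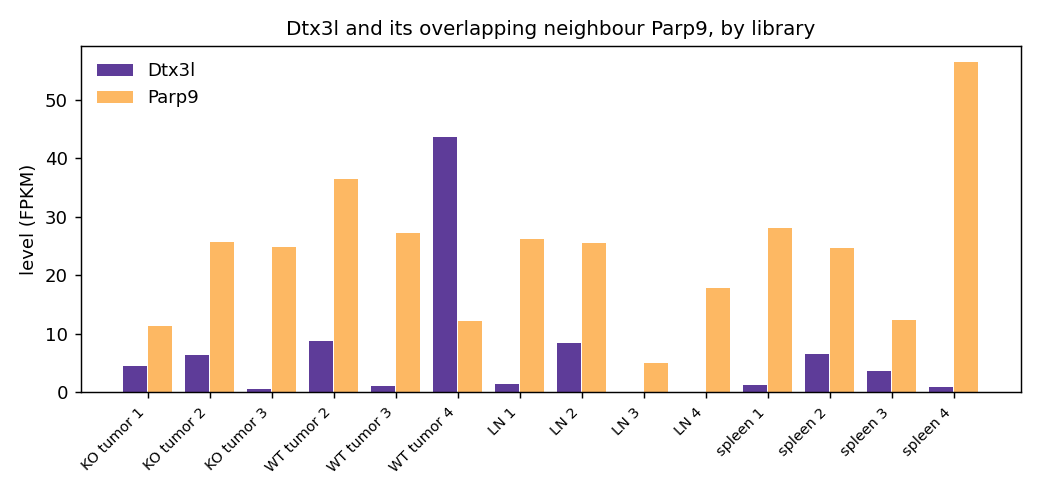
Levels in FPKM of Dtx3l and of Parp9, which overlaps it on the opposite strand, in each library, with bars from 0. Dtx3l is highest in WT tumor library 4 at 43.6 FPKM and Parp9 in spleen library 4 at 56.4.

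Of 5 PARP genes, Parp9 as the partner of Dtx3l and Parp10, Parp11, Parp12 and Parp14 as other interferon-induced members, 0 passed in any of the 4 comparisons by limma, and 0 had an unadjusted p under 0.05. Of all genes tested, 0.28% passed in KO tumor minus WT tumor, 3.04% in WT tumor minus LN, 1.9% in WT tumor minus spleen and 0.499% in LN minus spleen. At such shares 5 genes could hardly show a call, so nothing is read from the 0. Parp14, a mono-ADP-ribosyltransferase, averaged 12.5 ± 7.66 FPKM in KO tumor, 12.7 ± 5.34 in WT tumor, 6.30 ± 1.04 in LN and 9.66 ± 5.90 in spleen (SD, with 3 libraries per tumor group and 4 each of LN and spleen).

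Dtx4, the remaining Deltex ligase, had 3.99, 4.72 and 2.31 FPKM in KO tumor, 0.760, 5.90 and 3.95 in WT tumor, 1.90, 0, 0.863 and 1.38 in LN, and 2.54, 1.47, 1.62 and 5.74 in spleen. Each KO tumor library was above each LN library, and the other pairs of groups overlapped. The log2 difference was 0.22 ± 0.78 for KO tumor minus WT tumor, 1.05 ± 0.67 for WT tumor minus LN, 0.15 ± 0.67 for WT tumor minus spleen and -0.90 ± 0.62 for LN minus spleen. Its sign turned with single libraries left out for KO tumor minus WT tumor (-0.36 to 0.63) and WT tumor minus spleen (-0.26 to 0.73).

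**Figure D4:**
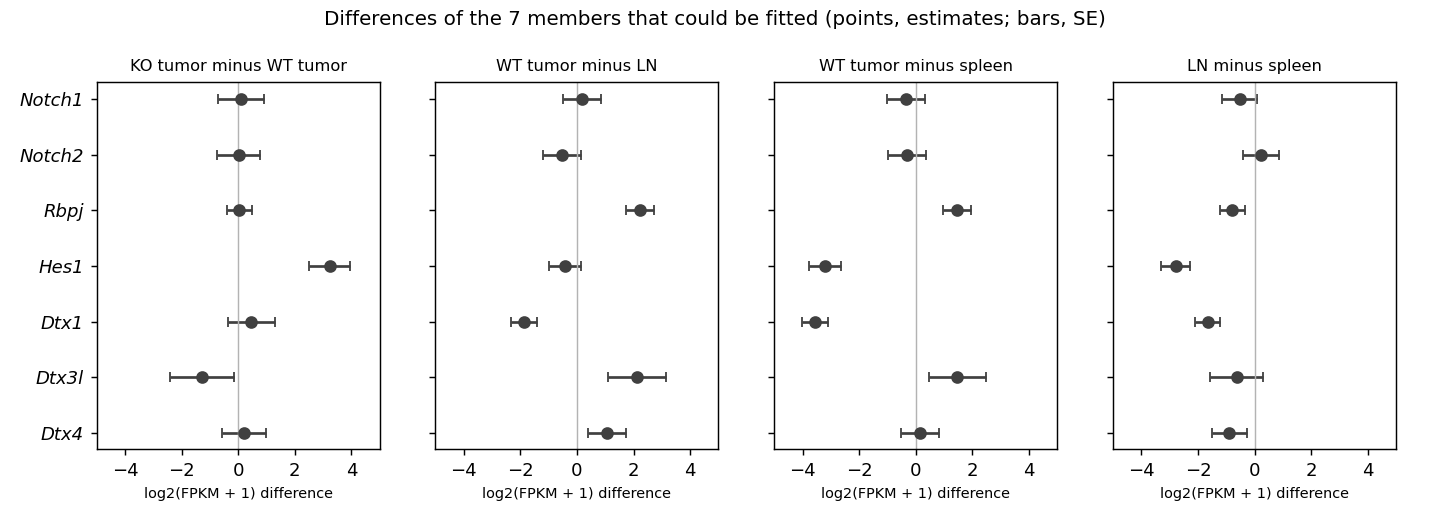
Difference on the log2(FPKM + 1) scale (horizontal axis) of the 7 members that could be fitted, in 4 comparisons. Points are estimates from robust limma-trend and bars the SE. WT tumor minus LN is 2.24 for Rbpj and -1.88 for Dtx1, and WT tumor minus spleen is -3.22 for Hes1, a size set by the pseudocount, and -3.55 for Dtx1.

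Of the 8 genes, 7 reached 1 FPKM in 3 libraries of a fit, all but Notch3. Groups did not overlap between WT tumor and LN for Rbpj, above, and Dtx1, below, beside 8.02% and 8.95% of genes in those directions. Between WT tumor and spleen they did not overlap for Rbpj, above, and for Hes1 and Dtx1, below, beside 5.73% and 5.8%. LN lay below spleen without overlap for Hes1 and Dtx1, beside 4%. The members were selected on these contrasts, so nothing is read from those shares.

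KO tumor was compared with the lymphoid groups by levels alone, since genotype and tissue differ together between them. Rbpj, Hes1 and Dtx4 lay above LN in every KO tumor library, beside 9.06% of 8922 genes that did so. Against spleen Rbpj lay above and Dtx1 below in every library, beside 7.24% of 8725 genes above and 6.97% below. Among the members, KO tumor did not overlap WT tumor for Hes1 alone, beside 7.54% of 8210 genes that were higher without overlap.

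The rest of the pathway, 70 genes by role, changed in few places. Of these, 41 were tested in KO tumor minus WT tumor and 44 in the other comparisons. The test was robust limma-trend with Benjamini-Hochberg adjustment over all genes tested and a threshold of 0.05. By limma 0 of 41 passed in KO tumor minus WT tumor (0.28% of the 8210 genes tested did), with 4 at an unadjusted p under 0.05. Without overlap of the tumor groups, 3 of the 41 were higher in KO tumor, beside 7.54% of genes tested, and 4 were lower. The share of all genes that were lower is not given here. In WT tumor minus LN 2 of 44 passed, both higher, beside 1.89% of the 9616 genes tested that were higher and 3.04% in either direction, with 7 at an unadjusted p under 0.05. By limma 0 of 44 passed in WT tumor minus spleen (1.9% of all tested), with 4 at an unadjusted p under 0.05, and 0 of 44 in LN minus spleen (0.499%), with 2. The share of all tested genes at an unadjusted p under 0.05 is not given here, so nothing is read from the unadjusted counts. The median log2 difference of the list was 0.09 in KO tumor minus WT tumor (0.07 over all tested genes), -0.10 in WT tumor minus LN (-0.12), -0.03 in WT tumor minus spleen (-0.07) and -0.12 in LN minus spleen (0.02).

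Furin, the protease that cuts the Notch precursor on its way to the surface, rose in WT tumor Treg over LN Treg. It had 21.2, 12.0 and 12.1 FPKM in KO tumor, 39.6, 26.4 and 17.2 in WT tumor, 4.69, 5.99, 4.03 and 2.48 in LN, and 6.35, 9.57, 6.74 and 9.12 in spleen. Every tumor library lay above every lymphoid library. The log2 difference of WT tumor minus LN was 2.41 ± 0.50, with limma's adjusted p of 0.0179. That of WT tumor minus spleen was 1.63 ± 0.50 with an adjusted p of 0.137, and that of KO tumor minus WT tumor was -0.81 ± 0.55 with an adjusted p of 0.761. The call against LN was lost without LN library 4 (adjusted p of 0.0529), WT tumor library 2 (0.0923) or WT tumor library 3 (0.0648).

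Gata3, the transcription factor of type 2 helper cells and a Notch target in T cells, also rose in WT tumor over LN. It had 49.9, 68.5 and 53.4 FPKM in KO tumor, 95.6, 127 and 139 in WT tumor, 34.2, 33.0, 36.4 and 37.2 in LN, and 86.2, 60.9, 34.1 and 47.0 in spleen. The WT tumor libraries were higher than all others. The log2 difference of WT tumor minus LN was 1.73 ± 0.35 with limma's adjusted p of 0.0144, and KO tumor minus WT tumor was -1.06 ± 0.34 with an adjusted p of 0.369. The call against LN was lost without WT tumor library 3 (adjusted p of 0.0586) or 4 (0.0533). The summed CD8 T or NK cell markers were higher in WT tumor than in LN, as given above, with Cd8b1 the highest of them. Their part in the Furin and Gata3 differences was not tested.

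None of the 8 ligands and other receptor genes reached 1 FPKM in 3 libraries of a fit. Jag1, the ligand with the highest mean, had 0.403, 0.302 and 2.48 FPKM in KO tumor, 0.0332, 0 and 0.643 in WT tumor, 0 in every LN library, and 0, 0.0145, 0 and 0 in spleen. The most abundant protease, glycosyltransferase, coactivator, corepressor and trafficking genes did not pass the test in any comparison. Psen2, a catalytic part of gamma-secretase, averaged 98.7 ± 19.6 FPKM in KO tumor, 117 ± 91.8 in WT tumor, 72.2 ± 24.0 in LN and 115 ± 55.6 in spleen. Mfng, a fringe glycosyltransferase that tunes ligand preference, averaged 39.5 ± 4.62 FPKM in KO tumor, 20.8 ± 12.5 in WT tumor, 37.8 ± 29.2 in LN and 25.3 ± 20.1 in spleen.

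The coactivator Crebbp, an acetyltransferase, averaged 38.6 ± 5.27 FPKM in KO tumor, 28.3 ± 13.3 in WT tumor, 22.7 ± 4.44 in LN and 25.2 ± 7.05 in spleen. The corepressor Hdac1, a histone deacetylase, averaged 30.05 ± 15.3 FPKM in KO tumor, 33.0 ± 16.8 in WT tumor, 30.4 ± 4.90 in LN and 33.4 ± 18.7 in spleen. Neurl3, of the trafficking group, averaged 29.3 ± 5.55 FPKM in KO tumor, 30.8 ± 12.0 in WT tumor, 10.4 ± 5.58 in LN and 14.3 ± 10.4 in spleen, and its WT tumor minus LN difference was 1.53 ± 0.61 with limma's adjusted p of 0.239.

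**Figure D5:**
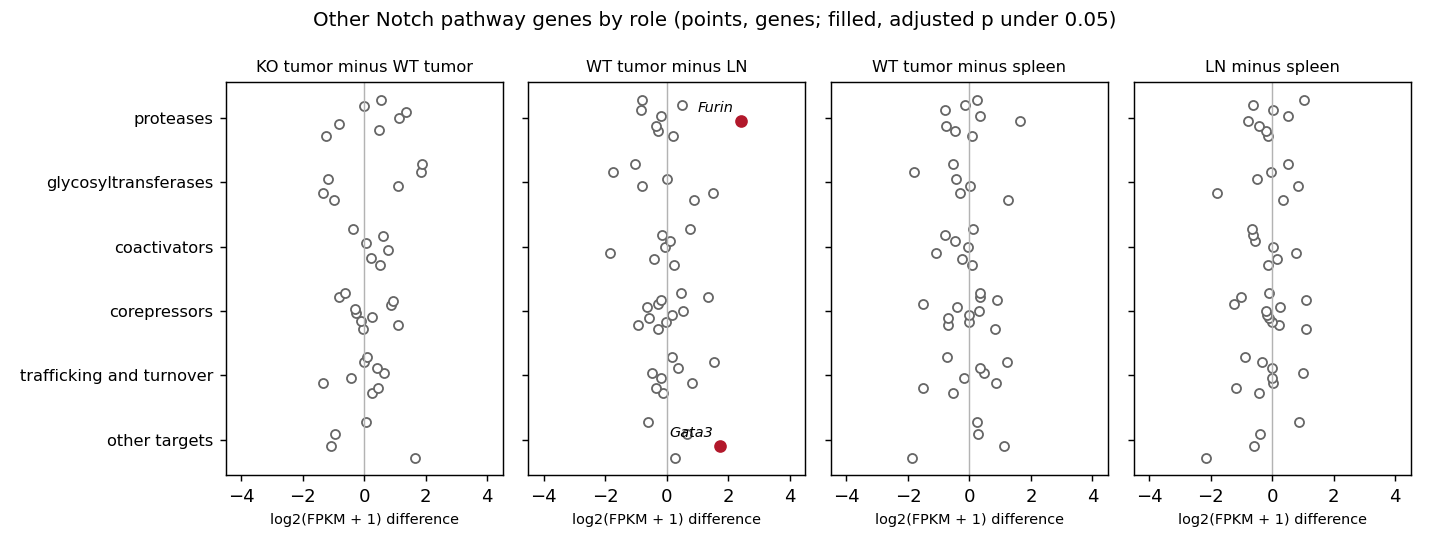
Difference on the log2(FPKM + 1) scale (horizontal axis) of the tested genes of the other pathway roles, with 1 point per gene and filled points where the adjusted p was under 0.05. Furin at 2.41 and Gata3 at 1.73 in WT tumor minus LN are filled, and the other points of the 4 panels are open.

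Likeness of profiles was measured as the root mean square difference between centred log2(FPKM + 1) values over the 14 libraries, among 6743 protein-coding genes with at least 5 FPKM in 3 libraries. For Rbpj the closest genes were Trib1 at 0.28 and Ubald2 at 0.39, against a root mean square of 1.04 for Rbpj itself. Trib1 averaged 28.3 FPKM in KO tumor, 34.5 in WT tumor, 5.55 in LN and 10.6 in spleen. Dtx1 (1.51 itself) was nearest to Dvl2 at 0.75 and Ccna2 at 0.90, and Hes1 (1.58) to Ccr3 at 0.91 and Kif11 at 0.92. Notch1 (0.66) was nearest to Agpat5 at 0.36 and Phip at 0.38, Notch2 (0.63) to Mcl1 at 0.37 and Ube2j2 at 0.46, and Dtx3l (1.44) to Rras at 0.87 and Arid5b at 0.92.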

How the data were processed

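RNA from Foxp3-YFP+ Treg was sequenced with a Smart-Seq2 protocol from low-input total RNA, per the labels. The FPKM values were deposited by the authors, 1 column per library. Per the submitters' processing notes, the tools were DESeq2, Cuffdiff, Cufflinks (2.2.1), Bowtie2 (2.2.9), TopHat2 (2.1.1) and Trimmomatic, with no role given, and the build was GRCm38 (mm10). The plan provided for counts or FPKM. The unit was FPKM, so no count test was run. FPKM are relative to the library, so genes that gain reads depress the rest.

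Robust limma-trend (limma 3.58.1, R 4.3.3) was fitted to log2(FPKM + 1), which understates differences of low genes. The 11 spleen, LN and WT tumor libraries shared a fit of 9616 genes, and the 6 tumor libraries a fit of 8210. A gene was tested where at least 3 libraries of its fit reached 1 FPKM, and p-values were adjusted over all tested genes, with a threshold of 0.05. The script was tested on simulated data. Depth was estimated from whole-read steps in genes with 1 annotated transcript of at least 800 bases: 93.0 to 96.0% of low values were whole reads within 0.1. The 3-read floors cover counting error only.

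The members, the gene lists and the naming rule were chosen with earlier results of these data known. Named genes were the members, every other pathway gene past the threshold and the most abundant gene of each role, the PARP list (1 gene of which is not reported here), and the 2 nearest profiles per member. Gene annotation was GENCODE M21 on GRCm38, which matched 22196 of 22255 identifiers. Python 3.11.15 was used for levels and figures. No libraries were identical, and the highest correlation between any pair was 0.852.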

Additional observations from a re-analysis of the deposited data

Results flagged for a closer look

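Of 15 groups of 4 libraries examined for a library far from the others, 2 stood out. Chance would flag about 1 in 20 groups of normally distributed values, a rate that need not hold where values are at 0. Hes1 was 1.89 FPKM in LN library 4, against 0 to 0.320 in the other LN libraries, a gap of 0.831 of the group's range, just over the critical value of Dixon's test. Notch3 was 0.0175 FPKM in LN library 1 and 0 in the other LN libraries, and 3 reads would give 0.0176 FPKM there. With the others at 0, its gap equalled the group's range whatever its size.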

How the results depend on the processing

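No call reversed direction. The count of genes in KO tumor minus WT tumor (23) was 0 with no filter on low values, 60 in one fit of all 14 libraries, 6 with the replicate block, and 9 to 15 without single libraries. WT tumor minus LN (292) gave 186 with the block and 183 to 268 without single libraries. WT tumor minus spleen (183) gave 112 with no filter, 107 with array weights, 87 from the compared groups only, 89 with the block, and 82 to 173 without single libraries. LN minus spleen (48) gave 16 with no filter, 20 with the block, and 13 to 35 without single libraries. Other pathway genes in WT tumor minus LN (2) numbered 1 with the block and 0 to 2 without single libraries. Those of WT tumor minus spleen and of LN minus spleen (0 each) numbered 0 to 1, the 1 arising without spleen library 3. Those of KO tumor minus WT tumor stayed at 0 under every setting. The cause was not tested.

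Same-numbered libraries had correlations of -0.03 to 0.01 over 12 pairs, taken on deviations from the group mean. Spread between single libraries could hide a shared mouse, so these values cannot decide whether the numbers pair libraries. With the block, the call of Furin in WT tumor minus LN was lost (limma's adjusted p of 0.0629). In WT tumor minus LN the block gave 2.2 for Rbpj and -1.85 for Dtx1, and in WT tumor minus spleen -3.17 for Hes1 and -3.51 for Dtx1. Rescaling to the protein-coding total shifted the all-gene median by under 0.1 in each comparison. The KO deletion and the Cre copy state cannot be told apart.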

Other observations

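Dtx1 in the 4 spleen libraries had a coefficient of variation of 1.98%, and 0 of 1325 genes with a spleen mean within a factor of 2 of it had a value as low. Their median was 43.4%. This was noticed after the values were seen. In LN the coefficient for Dtx1 was 40.0%, in WT tumor 46.9% and in KO tumor 75.5%.

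Hes1 in spleen varied by 23.6%, against a median of 73.2% over 3357 genes at like level. Ccnd1, a cell cycle gene on the list of other Notch targets, had 8.54, 0 and 7.04 FPKM in KO tumor, 1.15, 0.119 and 0 in WT tumor, 0.0627, 0.0528, 0 and 0.408 in LN, and 10.2, 5.5, 0.0194 and 6.94 in spleen.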
